A study of Rattus norvegicus with 12 samples.

Results

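The genes described here are those of myelin, of the oligodendrocytes that make it and of the precursor cells from which oligodendrocytes arise. They were chosen by symbol from a list of 34 names, of which 33 had 1 row each among the 23760 genes in the files; Lhfpl3 was not analysed here. The 12 libraries held RNA of rat (Rattus norvegicus) hippocampus, a structure on which learning and memory depend: 6 carried the label NC and 6 the label AS3h. The study asked what underlies a cognitive deficit that follows long operation under water, by setting AS3h against NC. The labels expand neither abbreviation and give no strain, sex, age, genotype, exposure or time of sampling, and nowhere state that each library is its own animal; a p-value here is therefore measured against the variation among these libraries only.

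Oligodendrocytes wrap axons in a membrane that is unusually rich in lipid, including galactosylceramide and its sulfated form sulfatide. That membrane is packed by a few very abundant proteins such as myelin basic protein. Precursor cells, which carry the receptor PDGFRα and the NG2 proteoglycan, persist in the adult hippocampus, divide and pass through a short committed stage before they myelinate. The transcription factors OLIG2 and SOX10 are present through the whole lineage, and MYRF is switched on as cells mature and drives the myelin genes.

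Values are normalised read counts, that is, reads divided by the authors' factor for the library, given as mean ± SD with n = 6 per group. A log2 fold change is AS3h over NC on the log2(value + 1) scale, ± its standard error. A gene was called at a limma p-value under 0.05 after Benjamini-Hochberg adjustment over all 19050 genes tested. Library totals ran from 29.6 M to 38.1 M assigned reads. All 33 genes passed the filter on low values. The least read of them, the homeobox gene Nkx2-2, had 601 reads in NC and 529 in AS3h when summed over each group. Counting error was therefore small for group sums. It was larger in single libraries, where Nkx2-2 had as few as 45 reads (AS3h 1). Levels are not compared between genes, since no transcript lengths were used.

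One library stood apart. AS3h 5 held the highest value of its group for 26 of the 33 genes (78.8%) and the highest of all 12 libraries for 20, against 17.5% and 9.82% of all genes tested. Its values were a median of 1.45 times the median of the other 5 AS3h libraries over the 33 genes, from 0.863 for Cspg4 to 2.41 for Nkx2-2, whereas the median over all genes tested was 1. The same library had by far the most reads of 10 choroid plexus markers, which summed to 70337 there, to between 534 and 7891 in the rest of AS3h and to between 299 and 1351 in NC. None of those 10 genes was at 0 in every library, and 1 of the 9 tested, Kcne2, was called. All 9 had fold changes above 0 (median 1.52). Their median log2 deviation from each gene's mean over the 12 libraries was 4.46 in AS3h 5. It was 1.61 in AS3h 4, 0.52 in AS3h 2 and 0.16 in AS3h 3. AS3h 1 (-0.67), AS3h 6 (-1.28) and every NC library (-1.29 to -0.09) lay below 0. The part of other tissue in the myelin values of AS3h 5 was not tested; results are therefore given with and without that library where it mattered.

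**Figure D1:**
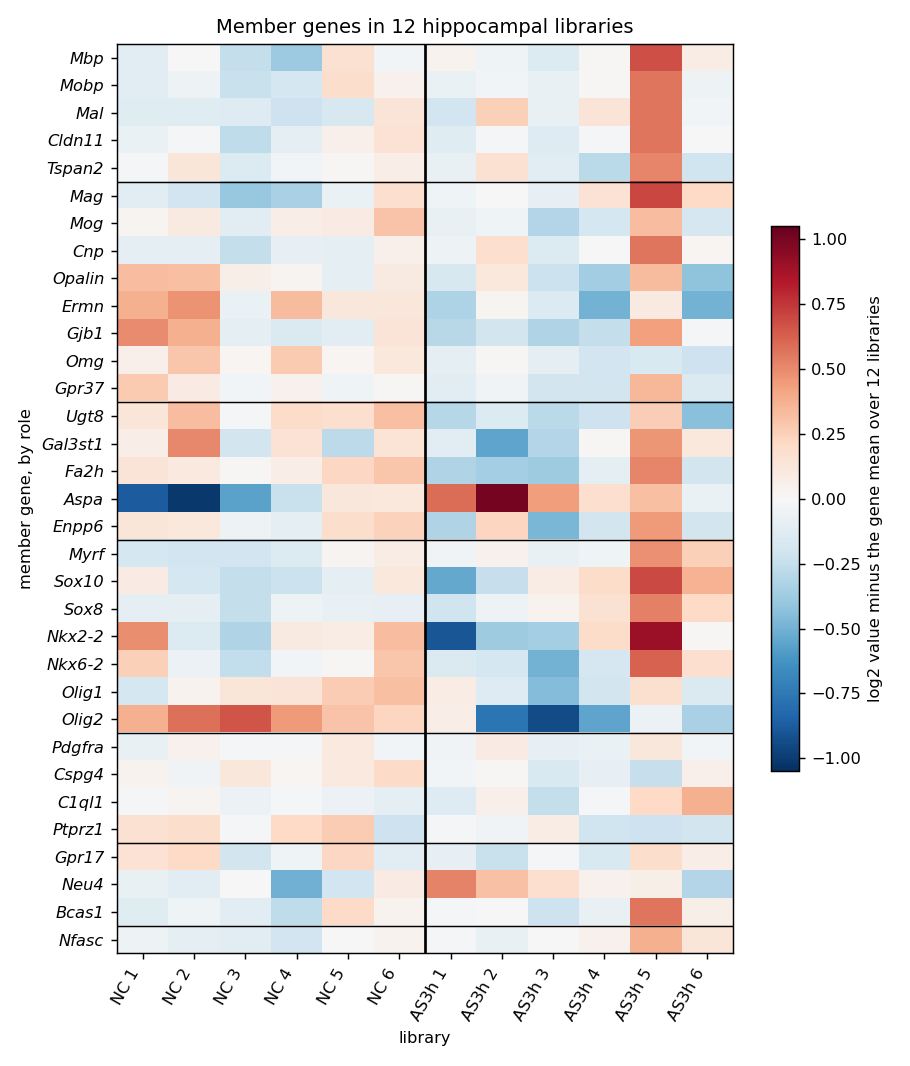
Heat map of the 33 member genes (rows, grouped by role) in the 12 libraries (columns, NC left of the thick line and AS3h right of it). Colour gives the log2 value minus the gene's mean over the 12 libraries; AS3h 5 is high in most rows, and Olig2 is high in NC and low in AS3h.

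**Figure D2:**
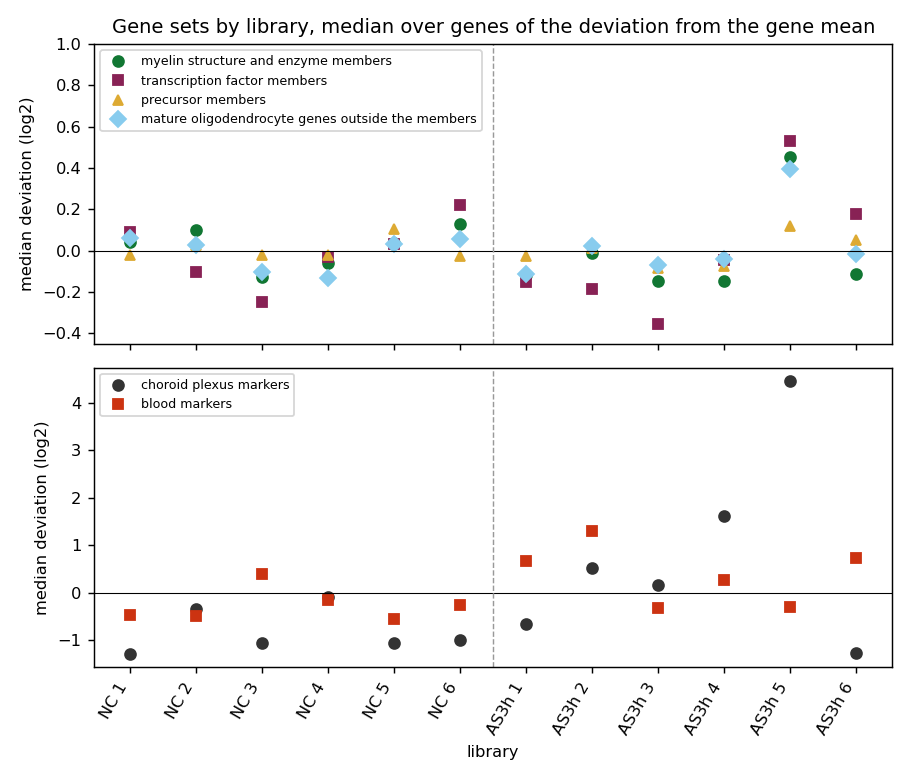
Each point is the median over genes of the log2 deviation from the gene's mean over 12 libraries, for 3 role groups of the members and for mature oligodendrocyte genes outside them (top), and for choroid plexus and blood markers (bottom). AS3h 5 stands highest for choroid plexus markers and for every set in the top panel. For precursor members it does so by little (0.118, with NC 5 at 0.106).

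Between the groups, 5 of the 33 genes were called: Olig2, Omg, Ugt8 and Ermn fell in AS3h and Aspa rose. That is 15.2% of the members, beside 9.26% of all genes tested that were called in either direction (4.22% lower, 5.04% higher). The median log2 fold change was -0.07 over the members and -0.0043 over all genes tested, and the median absolute change was 0.19 and 0.16. The major structural transcripts of compact myelin were not among those called. In bulk tissue, fewer cells of a type and less RNA per cell cannot be told apart. The count rested on single libraries. It was 2 without NC 2, AS3h 1 or AS3h 4, when 5.41%, 8.2% and 5.82% of all genes were called. It was 3 without NC 1, NC 4 or AS3h 6 (8.27%, 6.34% and 6.91% of all genes). Without AS3h 5 it was 7, all lower (8.02%), and without AS3h 4 and AS3h 5 it was 4, all lower (4.51%). With blood and choroid plexus marker levels as covariates it was 1, when 0.824% of all genes were called.

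**Figure D3:**
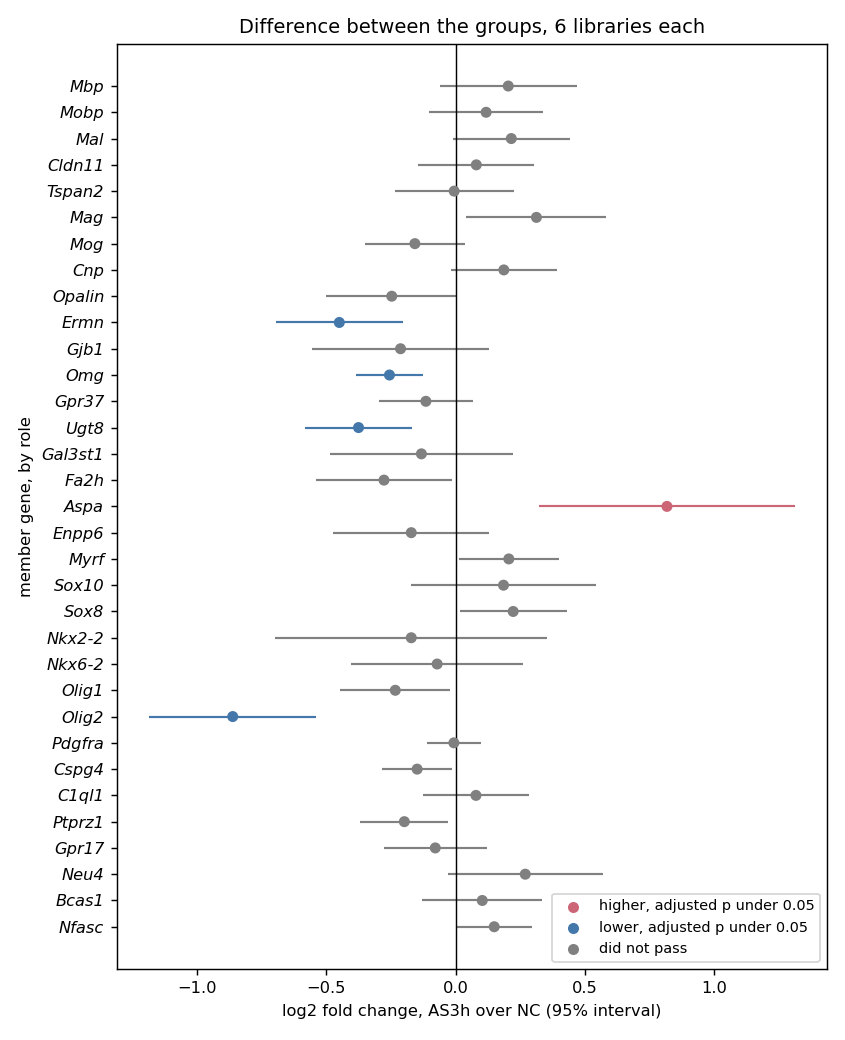
Log2 fold change of each member gene, AS3h over NC, with its 95% interval from limma over 6 libraries per group; genes are ordered by role. Olig2 lies lowest at -0.86 and Aspa highest at 0.82, while most intervals include 0.

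Among the transcription factors, Olig2 fell and the other 6 were not called. Olig2, the basic helix-loop-helix factor that specifies the lineage and stays on in its mature cells, ranged from 1134 to 1533 in NC with a median of 1294, and from 507 to 1020.1 in AS3h with a median of 715. Every AS3h library lay below every NC library, and AS3h 1 and AS3h 5 were the highest of their group. The means were 1317 ± 152 and 744 ± 203 (log2 fold change -0.86 ± 0.15, adjusted p = 0.00337), and the call held in all 12 omissions of 1 library, with fold changes between -0.96 and -0.76. With blood and choroid plexus levels as covariates the fold change was -0.91, but the adjusted p was 0.108. Its neighbour and paralogue Olig1, which promotes maturation, ran from 3277 to 4630.3 in NC (median 4086) and from 2716 to 4176 in AS3h (median 3368). The groups overlapped, and at -0.23 ± 0.10 Olig1 did not pass (adjusted p = 0.162).

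Sox10, the SRY-box factor that keeps oligodendrocyte identity and acts on myelin gene enhancers, was at 1590.0 to 2043 in NC (median 1714) and at 1305 to 3060.2 in AS3h (median 2081). AS3h held both the lowest and the highest library, AS3h 1 and AS3h 5, and the fold change of 0.19 ± 0.17 did not pass (adjusted p = 0.537). The membrane-tethered factor gene Myrf had 3302 to 4002 in NC (median 3384) and 3598 to 5295 in AS3h (median 3803). Its log2 fold change was 0.21 ± 0.09 with an interval from 0.01 to 0.40 and an adjusted p of 0.173, and without AS3h 5 it was 0.13. Sox8, which shares functions with Sox10, was at 0.22 (adjusted p = 0.169). Nkx2-2 and Nkx6-2, homeobox genes of precursor differentiation and of paranode assembly, were at -0.17 and -0.07 (adjusted p = 0.72 and 0.83), with intervals reaching from -0.70 to 0.35 and from -0.40 to 0.26. Nkx2-2 had the widest interval among the factors.

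Genes for compact myelin did not pass, and AS3h 5 held the highest AS3h value of each of the 5. Mbp, whose protein joins the cytoplasmic faces of the membrane, was at 142450 to 207474 in NC (median 176773) and at 167331 to 296020 in AS3h (median 188435). The top value was that of AS3h 5, and the other 5 AS3h libraries lay within the NC range. The fold change was 0.20 ± 0.12 (95% interval -0.06 to 0.47, adjusted p = 0.331), and 0.09 without AS3h 5. Mobp, a related basic protein gene, and Mal, for a raft-associated proteolipid, stood at 0.12 and 0.22 (adjusted p = 0.523 and 0.226). Cldn11, which forms the tight junctions between myelin lamellae, was at 0.08 (adjusted p = 0.687), and the tetraspanin gene Tspan2 was at -0.01 (adjusted p = 0.985; interval -0.24 to 0.23).

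Of the 8 genes for adaxonal and surface proteins, Ermn and Omg fell and 6 were not called. Ermn encodes ermin, an actin-binding protein of late-stage oligodendrocytes. Its values ran from 3025 to 4404 in NC (median 3728) and from 2249 to 3396 in AS3h (median 2702). The groups overlapped through NC 3, AS3h 2 and AS3h 5, with 4 AS3h libraries below every NC library. The means of 3745 ± 514 and 2758 ± 495 differed by -0.45 ± 0.12 (adjusted p = 0.026). Ermn lost its call without NC 1, NC 2, NC 4, AS3h 1, AS3h 4 or AS3h 6, each left out alone (adjusted p = 0.0512 to 0.0616), while its fold change stayed between -0.51 and -0.39. With blood and choroid plexus levels as covariates Ermn was at -0.58 and did not pass (adjusted p = 0.121).

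Omg encodes oligodendrocyte-myelin glycoprotein, a lipid-anchored ligand of the Nogo receptor that neurons make too. It was at 4652 to 5614 in NC (median 4863) and at 3953 to 4643 in AS3h (median 4200.1). The groups did not overlap, although the highest AS3h library, AS3h 2, and the lowest NC library, NC 3, were almost level. Omg and Olig2 were the only 2 of the 33 genes whose groups did not overlap, beside 5.05% of all genes tested (2.04% with AS3h the lower group). The fold change was -0.26 ± 0.06 (adjusted p = 0.017), and the call held in all 12 omissions of 1 library but not without AS3h 4 and AS3h 5 together (adjusted p = 0.089) nor with the blood and choroid plexus covariates (-0.31, adjusted p = 0.154). Omg lies within the span of Nf1 in the RefSeq gene table, and the strand setting of the counting is not given; Nf1 itself was at -0.13 ± 0.07 (adjusted p = 0.309).

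The remaining surface genes split by direction without a call. Mog, the surface glycoprotein of the outermost lamella, was at 3781 to 5038 in NC (median 4339) and at 3322 to 5129 in AS3h (median 3749), and Cnp, a cytoplasmic enzyme of the uncompacted channels, at 16002 to 19728 (median 17865) and 17221 to 28098 (median 19149). AS3h 5 was the highest library for both. Their fold changes were -0.16 ± 0.09 and 0.19 ± 0.10 (adjusted p = 0.304 and 0.243). Mag, the adhesion molecule of the innermost wrap, was at 0.31 ± 0.13 (adjusted p = 0.14). Opalin, a sialylated paranodal protein gene, was at -0.25 ± 0.12 (adjusted p = 0.212). Gjb1, for the gap junction protein connexin 32, and Gpr37, for an orphan receptor that restrains differentiation, were at -0.21 and -0.11 (adjusted p = 0.446 and 0.441).

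Enzymes of myelin lipid and metabolite chemistry included 1 gene that fell, 1 that rose and 3 that were not called. Ugt8 encodes the transferase that makes galactosylceramide. It was at 5111 to 6469 in NC (median 5875) and at 3801 to 6190.1 in AS3h (median 4351). All AS3h libraries but AS3h 5 lay below every NC library. The means of 5903 ± 510.5 and 4593 ± 834 differed by -0.37 ± 0.10 (adjusted p = 0.0253). Without AS3h 5 the difference was -0.46 (adjusted p = 0.00131), and with blood and choroid plexus levels as covariates -0.56 (adjusted p = 0.0206), where Ugt8 was the 1 member called. Without NC 2, NC 6, AS3h 1, AS3h 4 or AS3h 6, each left out alone, Ugt8 did not pass (adjusted p of up to 0.0622), at fold changes of -0.37 to -0.32.

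Fa2h, which hydroxylates the fatty acid chains of those galactolipids, was at 1297 to 1578 in NC (median 1399) and at 994 to 1841 in AS3h (median 1080.0). As for Ugt8, 5 AS3h libraries lay below every NC library; AS3h 5 was above every NC library for Fa2h and within their range for Ugt8. With all 12 libraries the fold change was -0.28 ± 0.12 and did not pass (adjusted p = 0.181). Without AS3h 5 it was -0.41 ± 0.07 and passed (adjusted p = 0.00302). Gal3st1, which sulfates galactosylceramide, was at -0.13 ± 0.17 (adjusted p = 0.673). Enpp6, a choline phosphodiesterase gene that marks newly forming oligodendrocytes, was at 217 to 275 in NC (median 251) and 166 to 316 in AS3h (median 203). AS3h spanned more than the whole NC range, and at -0.17 ± 0.14 Enpp6 did not pass (adjusted p = 0.495).

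Aspa encodes aspartoacylase, which frees acetate from N-acetylaspartate for lipid synthesis. In NC it was at 767, 699, 955, 1198, 1527 and 1525 in libraries 1 to 6, and in AS3h at 2122, 2828, 1909, 1591, 1751 and 1341. All AS3h libraries but AS3h 6 lay above every NC library, and the NC values themselves were spread widely. The means of 1112 ± 364 and 1924 ± 517 differed by 0.82 ± 0.23 (adjusted p = 0.0436), a 1.76-fold difference. The call was the least steady of the 5, being lost in 9 of the 12 omissions of 1 library (every one but those of NC 5, NC 6 and AS3h 6), with fold changes of 0.70 to 0.92 and adjusted p up to 0.0838. It was also lost with the blood and choroid plexus covariates, at 0.55 (adjusted p = 0.489). In the RefSeq gene table Aspa overlaps Spata22 and Trpv3, whose means were 12.6 and 82.6 in NC and 13.0 and 91.7 in AS3h; neither was called (adjusted p = 0.739 and 0.708), and reads that these genes may share with Aspa were not tested.

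**Figure D4:**
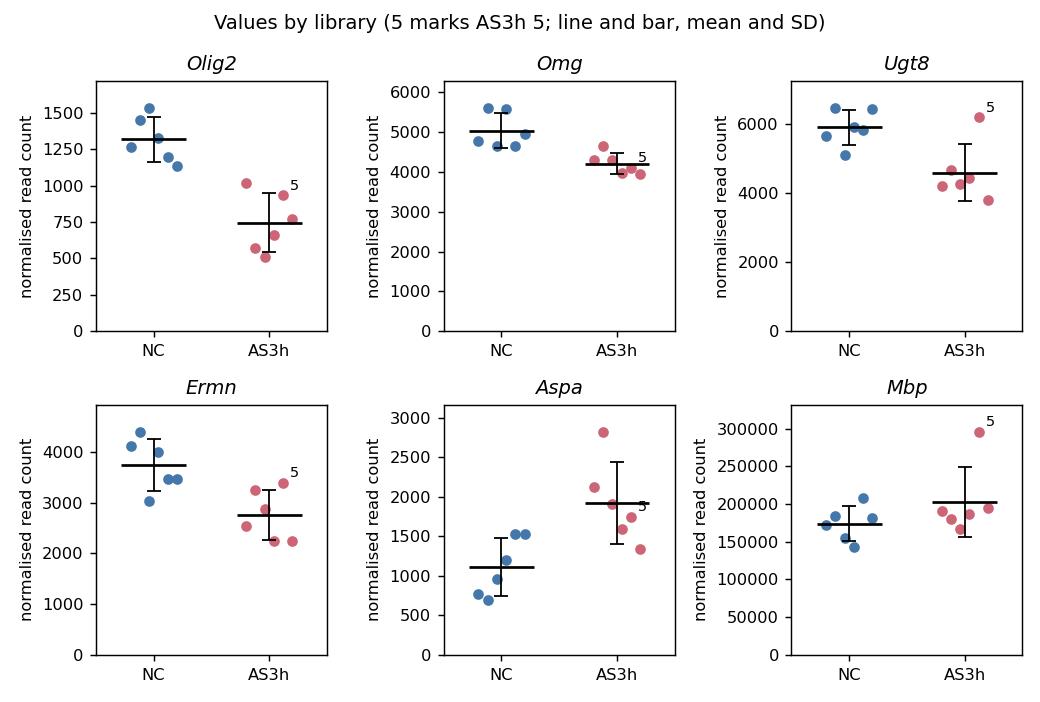
Normalised read counts of the 5 called members and of Mbp in each library (points), with the group mean and SD (line and bar); the digit 5 marks AS3h 5. All AS3h points lie below all NC points for Olig2 and Omg, and AS3h 5 lies apart from the other AS3h points for Ugt8 and Mbp.

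The RefSeq table held promoter windows, 250 bases before to 50 bases after a gene's start, for 25 of the 33 genes, 27 windows in all. Ermn, although called, had no window there. The windows of the other called members, Olig2, Omg, Ugt8 and Aspa, are shown because these genes differed between the groups. They are written 5′ to 3′ on the gene's strand, with capitals marking ACAAT, the core recognised by SOX factors, and CTGGCAC, a sequence bound by MYRF, on either strand. Where 2 matches overlap, the capitals run together.
Olig2 promoter, chr11:43961335-43961634, plus strand, GRCr8: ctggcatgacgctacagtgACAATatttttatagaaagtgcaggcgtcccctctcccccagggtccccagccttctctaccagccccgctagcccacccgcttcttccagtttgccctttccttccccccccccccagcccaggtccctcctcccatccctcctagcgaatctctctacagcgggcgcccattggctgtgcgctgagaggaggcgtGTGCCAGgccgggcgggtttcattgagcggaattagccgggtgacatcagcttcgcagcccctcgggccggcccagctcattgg
Omg promoter, chr10:64962001-64962300, minus strand, GRCr8: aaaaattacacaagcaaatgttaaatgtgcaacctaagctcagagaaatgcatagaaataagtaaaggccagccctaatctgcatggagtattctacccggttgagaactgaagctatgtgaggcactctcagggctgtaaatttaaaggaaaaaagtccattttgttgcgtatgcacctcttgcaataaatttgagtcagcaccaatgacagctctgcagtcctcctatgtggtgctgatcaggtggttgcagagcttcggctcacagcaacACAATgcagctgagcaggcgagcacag
Ugt8 promoter, chr2:217007118-217007417, minus strand, GRCr8: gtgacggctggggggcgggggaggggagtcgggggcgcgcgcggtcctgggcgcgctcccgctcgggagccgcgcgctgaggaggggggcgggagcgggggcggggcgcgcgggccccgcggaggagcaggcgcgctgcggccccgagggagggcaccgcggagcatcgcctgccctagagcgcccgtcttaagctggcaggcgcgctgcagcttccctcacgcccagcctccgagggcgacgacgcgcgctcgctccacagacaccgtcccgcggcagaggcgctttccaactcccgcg
Aspa promoter, chr10:58438988-58439287, minus strand, GRCr8: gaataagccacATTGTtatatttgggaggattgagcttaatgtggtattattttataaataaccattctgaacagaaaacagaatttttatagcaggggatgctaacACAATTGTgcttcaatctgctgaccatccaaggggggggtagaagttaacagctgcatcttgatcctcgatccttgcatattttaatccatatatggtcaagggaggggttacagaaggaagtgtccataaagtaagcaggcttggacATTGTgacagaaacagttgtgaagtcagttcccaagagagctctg
The Olig2 window held 1 of each, the Omg window 1 ACAAT, the Ugt8 window neither and the Aspa window 4 ACAAT, 2 of them overlapping. The windows also differed in base composition, with 79.3% G and C in Ugt8 and 40.3% in Aspa, and the median was 63.3% over the 27 member windows and 51.7% over all windows. ACAAT was in 33.3% of the 27 member windows and 33.7% of all 33469 windows. CTGGCAC was in 6 member windows (22.2%), those of Cnp, Enpp6, Mag, Mal, Olig2 and Opalin, and in 4.75% of all windows; the share was not adjusted for base composition. The motif CANNTG, the E-box that OLIG factors and other basic helix-loop-helix proteins recognise, was searched too (not in capitals), and was in 74.1% of member windows and 72.1% of all windows. The 6 genes did not share a direction: Olig2 fell, and Cnp, Mag and Mal had fold changes above 0 and Enpp6 and Opalin below 0 without passing. A match is a description of these letters and not of binding.

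Precursor genes did not pass. Pdgfra, for the receptor of the growth factor that keeps precursors dividing, was at 3107 to 3528 in NC (median 3247) and at 3089.9 to 3557 in AS3h (median 3203). The groups covered nearly the same range, and the interval of the fold change, -0.11 to 0.10 around -0.01 (adjusted p = 0.957), was the narrowest among the 33 genes. Cspg4, for the NG2 proteoglycan of precursors and pericytes, ran from 890.1 to 1051 in NC (median 956) and from 773 to 944 in AS3h (median 877). It was at -0.15 ± 0.06 with 3 AS3h libraries below every NC library, and did not pass (adjusted p = 0.159); AS3h 5 was the lowest. Ptprz1, a receptor phosphatase gene that astrocytes also use, was at -0.20 ± 0.08 (adjusted p = 0.135), and passed in 1 of 12 omissions, that of NC 6 (-0.26, adjusted p = 0.0289). C1ql1, a secreted C1q-like synaptic protein gene, was at 0.08 (adjusted p = 0.66).

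Genes of the committed stage were likewise not called. Gpr17, the receptor gene that marks this stage, was at 484 to 646 in NC (median 576) and at 471 to 630.4 in AS3h (median 536), overlapping almost throughout (-0.08 ± 0.09, adjusted p = 0.651). In the RefSeq gene table Gpr17 overlaps Lims2, at 301 ± 22.5 in NC and 395 ± 73.2 in AS3h (0.37 ± 0.12, adjusted p = 0.055). Mog and Tspan2 overlap Zfp57 and Tshb there, neither of which was called. Reads that these genes may share with the members were not tested. Bcas1, which marks early myelinating cells, was at 7847 to 10813 (median 8936) and 8122 to 13893 (median 9348), with AS3h 5 again the highest (0.10 ± 0.11, adjusted p = 0.604). Neu4, a sialidase gene, was at 0.27 ± 0.14 (adjusted p = 0.253). Nfasc, whose glial product builds the paranodal junction and whose neuronal product builds the node, was at 0.15 ± 0.07 (adjusted p = 0.19).

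Without AS3h 5, 7 of the 33 genes passed and all 7 were lower: Olig2 (-0.94, adjusted p = 0.00239), Ugt8, Fa2h, Ermn (-0.51, adjusted p = 0.0131), Omg (-0.25, adjusted p = 0.0325), Mog (-0.24, adjusted p = 0.0469) and Opalin (-0.34, adjusted p = 0.0473). Aspa did not pass without it (0.84, adjusted p = 0.0681), and 8.02% of all genes tested did. That library was set apart by its high values for these same genes, so leaving it out lowers most of their fold changes. The fold changes of 28 of the 33 genes were lower without it. The shared direction of the added calls is therefore not separate evidence. Mbp, Mobp, Cnp, Mal and Cldn11 did not pass with or without AS3h 5. In an alternative chosen after the data were seen, the mean level of 33 mature oligodendrocyte genes outside the members was a covariate. Then 6 members and 9.32% of all genes passed: Olig2 (-0.87), Ermn (-0.48), Ugt8 (-0.42), Fa2h (-0.34) and Omg (-0.25) were lower, and Mag was higher (0.25, adjusted p = 0.0173). Mag stayed called with that covariate and AS3h 5 left out (0.27, adjusted p = 0.0285), when 5 members and 6.2% of all genes passed.

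**Figure D5:**
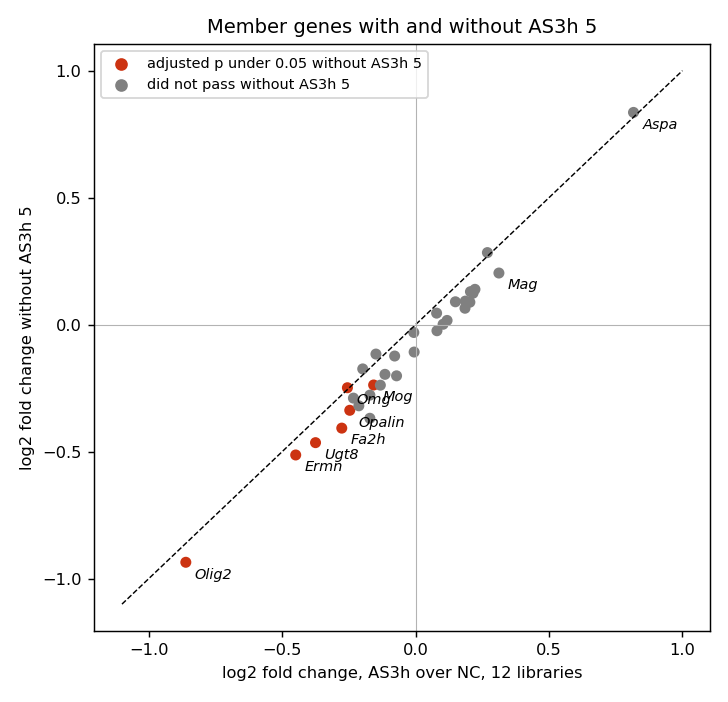
Log2 fold change of each member gene, AS3h over NC, with all 12 libraries (horizontal axis) and without AS3h 5 (vertical axis); red points passed without AS3h 5, and the dashed line marks equal values. Most points lie below the line, and the 7 red points all lie below 0.

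Other genes of the lineage were read from lists that do not hold the members. Of 33 mature oligodendrocyte genes, 2 rose, 3 fell and 28 did not pass (15.2% called, beside 9.26% of all genes tested, and median 0.08). Josd2, for a deubiquitinase, fell from 651 ± 48.3 to 422 ± 59.1 (-0.63 ± 0.09, adjusted p = 0.000636), and Galnt6, a glycosyltransferase gene, rose from 597 ± 46.7 to 904 ± 164 (0.58 ± 0.10, adjusted p = 0.00237). Neither had overlapping groups. Evi2a fell (-0.51, adjusted p = 0.00458), as did Pex5l (-0.38, adjusted p = 0.0222), and the tubulin gene Tubb4a rose (0.35, adjusted p = 0.0201). Tubb4a lost its call without NC 2 (adjusted p = 0.0509), and Pex5l without NC 2 (0.0543) or AS3h 4 (0.0536).

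Of 19 other precursor and differentiation genes, 1 rose and 18 did not pass (5.26% called, beside 9.26% of all genes tested, and median -0.04). The gene that rose was Fyn, a kinase that starts local myelin translation (0.27, adjusted p = 0.0203, and 0.0516 without AS3h 4). Among 35 signals and regulators of the lineage, 2 rose, 1 fell and 32 did not pass (median 0.03). That is 8.57% called, near the share of all genes. Zeb2, a repressor needed for myelination, fell (-0.55 ± 0.13, adjusted p = 0.0229), and the growth factor receptor gene Fgfr2 and the kinase gene Akt1 rose (0.19 and 0.15, adjusted p = 0.0402 and 0.0467). Fgfr2 and Akt1 lost their calls in 9 and 10 of the 12 omissions of 1 library, and Zeb2 in 3, those of NC 2, AS3h 4 and AS3h 6 (adjusted p of up to 0.0517).

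Of 19 genes of sphingolipid and sulfatide metabolism, 1 fell and 18 did not pass (5.26% called, beside 9.26% of all genes tested, and median 0.02). The gene that fell was Cers4, a ceramide synthase gene, with no overlap between groups (1336 ± 78.9 to 1086 ± 109.8, -0.30 ± 0.07, adjusted p = 0.0145). None of 19 node and paranode partners passed under limma (median -0.02), the smallest p being that of Kcnq3 (-0.36, adjusted p = 0.176). In a list of 4 symbols, with 5 rows, for a kinase cascade that glucocorticoid hormones induce in oligodendrocytes, Gpd1, an NADH-linked glycerol phosphate dehydrogenase gene, rose from 7181 ± 2416 to 11941 ± 1761 (0.79 ± 0.20, adjusted p = 0.0284). Gpd1 lost its call in 6 of the 12 omissions (adjusted p of up to 0.0631), and Sgk1 and Ndrg1 did not pass (0.19 and 0.14, adjusted p = 0.367 and 0.251). The receptor gene Nr3c1 had a pair of rows, 1 of which fell (-0.32, adjusted p = 0.027; not called in 4 of the 12 omissions) and 1 of which did not pass (-0.41, adjusted p = 0.0765).

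Markers of other cells that express some of the members were read beside them. Summed over 10 genes, neuron markers were at 244128 to 289456 in NC and at 263461 to 313711 in AS3h. Of the 10, 9 had fold changes above 0 and 1 below (median 0.12). Slc17a7 alone was called, higher (0.27, adjusted p = 0.0318, not called in 7 of the 12 omissions). Pericyte markers, which share Cspg4, summed to 2473 to 2944 and 2268 to 3313 with 0 of 6 called by limma. Their fold changes were above 0 for 2 and below for 4 (median -0.15). Markers of fibroblasts, which also use Pdgfra, summed to 1806 to 4232 and 1928 to 16149 with 0 of 6 called. Of these, 5 were above 0 and 1 below (median 0.29). Astrocyte markers summed to 125006 to 146033 in NC and 119320 to 129826 in AS3h. Of the 9, 2 had fold changes above 0 and 7 below (median -0.08). Fgfr3 alone was called, higher (0.22, adjusted p = 0.0352, not called in 8 of the 12 omissions). Microglial markers summed to 8128 to 10133 and 7606 to 9210.0; all 7 had fold changes below 0 (median -0.24) and 1, Cx3cr1, was called (-0.55, adjusted p = 0.00883). Endothelial marker sums did not overlap, at 4935 to 6871 in NC and 3593 to 4217 in AS3h. Of 5 endothelial genes, 2 had fold changes above 0 and 3 below. Slco1a4 (-0.97, adjusted p = 8.64e-05) and Flt1 (-0.27, adjusted p = 0.0378, not called in 7 of the 12 omissions) were called lower. Blood markers summed to 9546 to 23241 in NC and 12355 to 39096 in AS3h, with AS3h 2 the highest and 0 of 8 called. Of the 8, 7 had fold changes above 0 and 1 below (median 0.65). Of the cells in this paragraph only blood entered a covariate fit, and the part of the others in the members' values was not tested.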

How the data were processed

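Strand-specific RNA libraries were made from hippocampus, 1.3 µg of total RNA each, per the labels' protocols. FastQC 0.11.5, STAR and the build mRatBN7.2 are named in the submitters' processing notes without a role; the counting program, strand, annotation and filters were not given in the sources used here. The authors deposited 1 file per library with log2 values for 23760 genes. Judged by the values, these are log2(x + 1), where x is reads over a library factor of 0.92 to 1.16. Undoing this gave whole reads for 100% of values (tolerance 0.02 read) and totals of 29.6 M to 38.1 M. For most well-read genes, precision is therefore set mainly by the spread between libraries. For sparsely read genes, counting error adds to it.

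Group and replicate were read from sample titles. Genes with a normalised value of at least 1 in at least 6 libraries were kept (19050), and limma 3.58.1 (R 4.3.3; empirical Bayes, robust and with an intensity trend) compared 6 AS3h with 6 NC libraries on the deposited log2 values, with the group as the only term and Benjamini-Hochberg adjustment over all genes kept. No set test was run, and 1 marker list is not reported here. On this scale changes of sparsely read genes are understated. The member genes, gene lists and tests were chosen with earlier results of these data known. All members were reported, with the lowest, median and highest value per group for those called and for Mbp, Mog, Cnp, Myrf, Sox10, Olig2, Pdgfra, Cspg4, Gpr17, Enpp6 and Bcas1; Fa2h and Olig1 were added after their values were seen. Of each other list of lineage genes, up to 5 called genes by smallest p were named, or, with none called, the gene with the smallest p; further genes of the kinase cascade list and called markers of other cells were named after their values were seen. Alternatives were limma-voom on recovered reads, other filters, pseudocount, factors and thresholds, the replicate block, omission of each library and of AS3h 4 with AS3h 5, and blood and choroid plexus covariates; the mature oligodendrocyte covariate was added after the data were seen. Even the most alike replicates (chi-square per degree of freedom 11.9) differed beyond sampling noise, so all 12 were counted. The main limma fit was first tested on simulated data, and the alternatives were not. Promoter windows came from RefSeq (GRCr8), and figures from matplotlib 3.10.9 in Python 3.11.15.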

Additional observations from a re-analysis of the deposited data

Results flagged for a closer look

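On the log2 scale, 66 sets of 6 libraries were examined (33 genes in 2 groups). In 8, a library lay farther from the rest than Dixon's 95% limit. Chance flags about 1 in 20 independent sets, but these sets share the same 12 libraries. AS3h 5 was the library in 6 of the 8, each time as the highest: Mbp at 296020, Mobp at 29338, Cldn11 at 17439, Bcas1 at 13893, Gpr37 at 4828 and Fa2h at 1841 normalised reads. Mal was high in NC 6, at 14243, and Sox8 was low in NC 3, at 849.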

How the results depend on the processing

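The count of 5 called members and its split of 1 higher and 4 lower stood with limma-voom (12.1% of all genes called), no filter (6.27%), a filter at 10 (11.4%), a pseudocount of 0.1 (9.1%), total-read (8.66%) or median-of-ratios factors (9.04%) and a threshold of 0.1, where the members' 15.2% lay beside 14.9% of all genes. It was 2 without the robust option and trend (6.46% of all genes called), 1 with the blood and choroid plexus covariates and 2 to 7 over the omissions of 1 library. Of all genes, 1764 were called, against 2835 at a threshold of 0.1, 860 without AS3h 4 and AS3h 5, 157 with those covariates and 1030 to 1788 over the omissions. The median fold change of all genes stayed between -0.0112 and -0.00052 in every fit. Signs turned only for members that were not called in either fit. With the blood and choroid plexus covariates these were Mobp (-0.0043), Mal (-0.11), Cldn11 (-0.10), Cnp (-0.076), C1ql1 (-0.0773), Bcas1 (-0.0591) and Gpr17 (0.0443), and without AS3h 4 and AS3h 5 Cldn11 (-0.0337). Over the omissions of 1 library Pdgfra ranged from -0.0307 to 0.014, Tspan2 from -0.11 to 0.0502, Cldn11 from -0.0238 to 0.12 and Nkx6-2 from -0.20 to 0.0205. The cause was not tested. Replicate numbers did not pair the libraries (same-number correlations from -0.13 to 0.15, 2 of 6 over 0.1, 1 of 6 libraries closest to its own number). With the replicate block 1296 genes (6.8%) and 4 members were called, Aspa being lost (adjusted p = 0.162).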

Other observations

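The 5 within-library ratios here were picked after the values were seen. They are given without a test, and how often other pairs of genes separate the groups was not computed. Olig2 stood at 0.245 to 0.385 of the Olig1 value in NC (median 0.35) and at 0.169 to 0.26 in AS3h (median 0.213), and the ranges overlapped through NC 6 and AS3h 1. Against Sox10 the ratio was 0.555 to 0.964 in NC (median 0.75) and 0.254 to 0.782 in AS3h (median 0.311), with AS3h 1 the only AS3h library inside the NC range. Ermn counts were 1.67% to 2.80% of Mbp counts in NC and 1.15% to 1.81% in AS3h. Ugt8 counts were 2.81% to 4.15% of Mbp counts in NC and 1.95% to 2.60% in AS3h, so these groups did not overlap. The ratio of Ugt8 to Fa2h overlapped, at 3.91 to 4.68 in NC (median 4.03) and 3.36 to 4.65 in AS3h (median 3.89). These are ratios of reads, not of molecules, since transcript lengths were not used.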
